A study of Mus musculus with 44 samples.

Results

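The 10 genes described here encode the enzymes that build, elongate and desaturate fatty acids. They are Acly and Acss2, which supply cytosolic acetyl-CoA, Acaca and Fasn, which turn it into palmitate, the stearoyl-CoA desaturases Scd1 and Scd2, the elongases Elovl5 and Elovl6, and the fatty acid desaturases Fads1 and Fads2. They were found by gene symbol, and each of the 10 symbols had 1 row among the 14699 genes of the deposited table and passed the filter that left 11963 genes for testing. Expression was measured by RNA-seq in CD45+CD11c+MHCIIhigh cells, sorted from the draining inguinal lymph node 24 h after a subcutaneous injection at ZT3, ZT9, ZT15 or ZT21 (zeitgeber time, hours after light onset in a day with 12 h of light). All mice were females aged 8 to 12 weeks. The WT group comprised 20 WT mice that received B16-F10-OVA cells, a mouse melanoma line that expresses ovalbumin, with 5 mice per timepoint. The group labelled Bmal1ΔcDC comprised 12 mice that received the same cells, with 3 per timepoint. These mice were homozygous for floxed alleles of Arntl, whose product is the clock protein BMAL1, and carried Clec9a-cre, a Cre recombinase driven by a gene of conventional dendritic cells (DCs) and their progenitors. The PBS group comprised 12 WT mice that received a sham injection of PBS, with 3 per timepoint. The study used light-tight cabinets where several timepoints were examined at once, without saying which of these mice they held, and the labels name no strain.

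Fatty acid synthesis starts in the cytosol from acetyl-CoA, which ATP citrate lyase makes from citrate and acetyl-CoA synthetase makes from acetate. Acetyl-CoA carboxylase and fatty acid synthase then build palmitate, which elongases lengthen and desaturases unsaturate, whereas FADS1, FADS2 and ELOVL5 also process the essential polyunsaturated fatty acids taken up from the diet. Transcription of these enzymes is driven by the sterol regulatory element-binding proteins SREBP-1 and SREBP-2 (Srebf1, Srebf2), which INSIG1 retains in the endoplasmic reticulum when sterols are abundant, and by the liver X receptor LXRα (Nr1h3). In DCs, lipid synthesis is known to accompany activation, when endoplasmic reticulum and Golgi membranes expand.

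The libraries held 20088012 to 28962671 reads on genes in WT, 29406729 to 55799163 in the group labelled Bmal1ΔcDC and 28003328 to 49590055 in PBS, so the WT libraries were shallower. These depths were inferred from the deposited values, with the most frequent value above 0 in each library taken as 1 read. Each library came from 1 mouse, and p-values therefore measure the spread between mice. Mice with tumour cells came from 2 independent experiments that the labels do not tell apart, so no term for them was fitted, and any difference between experiments lies within that spread or within the group differences. All 13 DC markers searched were listed, with summed levels of 24142 to 35916 CPM, the deposited unit (reads on a gene over all reads on listed genes, scaled to a total of 1000000). Arntl, the gene meant to be deleted, was not lower in the libraries labelled Bmal1ΔcDC (19.9 ± 6.91 CPM, SD, n = 12) than in WT (14.8 ± 3.65 CPM, n = 20). A gene-level value also counts reads outside the floxed exon and so does not measure recombination. Every direction given for these libraries is therefore that of libraries labelled Bmal1ΔcDC. Single libraries stood apart over the fatty acid genes: replicate 1 of WT ZT9 was the lowest of its 5 libraries for 9 of 10 genes, and replicate 1 of the ZT21 libraries labelled Bmal1ΔcDC was the highest of its 3 for 9 of 10 genes. Replicate 3 of WT ZT15 was the highest for 8 genes and replicate 2 of WT ZT15 the lowest for 8. Values without the first 2 of these libraries are given beside several results. They were picked after the data were seen, for their values of these same genes. Their omission therefore shifts the differences by construction and is no separate evidence in either direction.

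In GRCm38 (GENCODE M21), 3 of the genes lie on chromosome 11: Acly (chr11:100476352-100528000, minus strand), Acaca (chr11:84129635-84401651, plus strand) and Fasn (chr11:120805958-120825166, minus strand). A further 4 lie on chromosome 19 as neighbouring pairs, Scd1 (chr19:44394450-44407709, minus strand) beside Scd2 (chr19:44293676-44306864, plus strand), and Fads1 (chr19:10182877-10196874, plus strand) beside Fads2 (chr19:10062765-10101503, minus strand). Acss2 lies at chr2:155518043-155562743 (plus strand), Elovl5 at chr9:77917365-77984519 (plus strand) and Elovl6 at chr3:129532386-129638495 (plus strand). Some reads could belong to another gene. Of the stretches of 50 bases (the read length) in the longest transcript of Acaca, 52.6% also occur in the transcript of the gene Gm5182, so values of Acaca are uncertain. That share was 7.43% for Acss2, 4.66% for Scd1, 4.40% for Elovl6, 4.01% for Scd2, 0.161% for Fads2 and 0 for the other 4 genes. The kit did not mark strand, and exons of Acss2 overlap exons of Acss2os, Ggt7 and Gss on the other strand by up to 395 bases. Scd1 and Scd2 held fractions of a read in 100% of libraries, Fads2 in 38.6%, Acss2 in 22.7% and Acly in 2.27%, so that reads of these genes may have been shared between genes.

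Promoters of 7 of the 10 genes were matched by symbol in RefSeq (GRCm38.p6), as the 250 bases before the annotated start. Those of Fads2 and Fasn, which differed between ZT9 and ZT21 in WT, and of the elongases Elovl5 and Elovl6, which differed between groups, are printed 5′ to 3′ on the strand of the gene. Capitals mark matches, on either strand, to the E-box CACGTG that BMAL1 can bind, to the CCAAT box or to the GC box GGGCGG.
Fads2 (chr19:10101504-10101753, minus strand): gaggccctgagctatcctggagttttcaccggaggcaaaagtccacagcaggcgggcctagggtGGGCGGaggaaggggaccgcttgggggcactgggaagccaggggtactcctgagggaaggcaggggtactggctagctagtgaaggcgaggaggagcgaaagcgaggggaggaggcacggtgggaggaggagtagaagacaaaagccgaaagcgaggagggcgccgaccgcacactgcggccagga
Fasn (chr11:120824548-120824797, minus strand): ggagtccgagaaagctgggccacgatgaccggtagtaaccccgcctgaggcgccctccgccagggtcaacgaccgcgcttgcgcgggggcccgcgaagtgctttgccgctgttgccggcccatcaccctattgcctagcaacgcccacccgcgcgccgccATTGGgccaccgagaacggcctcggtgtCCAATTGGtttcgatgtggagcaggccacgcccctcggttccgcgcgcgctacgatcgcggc
Elovl5 (chr9:77917115-77917364, plus strand): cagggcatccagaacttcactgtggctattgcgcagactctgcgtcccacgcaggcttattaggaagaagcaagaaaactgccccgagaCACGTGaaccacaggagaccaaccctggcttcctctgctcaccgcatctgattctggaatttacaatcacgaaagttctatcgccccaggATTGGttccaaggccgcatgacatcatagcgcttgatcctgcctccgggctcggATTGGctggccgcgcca
Elovl6 (chr3:129532136-129532385, plus strand): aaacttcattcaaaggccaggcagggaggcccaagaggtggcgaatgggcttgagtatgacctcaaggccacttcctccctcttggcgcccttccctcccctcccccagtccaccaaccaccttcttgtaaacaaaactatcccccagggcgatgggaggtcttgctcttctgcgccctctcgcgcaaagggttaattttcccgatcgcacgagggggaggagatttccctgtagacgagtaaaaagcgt
The E-box was found only in the Elovl5 window, 161 bases before the start, beside 2 CCAAT boxes. The Fasn window held 3 CCAAT matches, 2 of them overlapping on opposite strands, and its start lies 619 bases inside the RefSeq gene. The Fads2 window held 1 GC box, and the Elovl6 window held no match. The sterol regulatory element TCACNCCAC was in none of the 7 windows. Among 27025 promoters of the same length, 6.05% held the E-box, 34.5% CCAAT, 32.9% the GC box and 1.04% this sterol regulatory element. These matches describe letters in a window and were not tested for binding.

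Divided by the length of the longest transcript, mean levels in WT were highest for Acly (34.5 ± 8.04 CPM per kb, SD, n = 20) and Elovl5 (23.7 ± 3.07). Scd2 (8.11 ± 1.83), Fads1 (5.60 ± 1.94), Acss2 (4.71 ± 1.14) and Fasn (2.77 ± 0.812) followed. Fads2 (1.37 ± 0.524), Scd1 (1.11 ± 0.380), Acaca (0.801 ± 0.223) and Elovl6 (0.273 ± 0.176) were lowest. Neighbours in this order differed by less than their summed SDs, except Elovl5 and Scd2, Fasn and Fads2, and Acaca and Elovl6. The order was the same in libraries labelled Bmal1ΔcDC, and in PBS only Scd1 and Fads2 exchanged places. Elovl6 was at the edge of detection, with 0 to 99 reads per WT library. The remaining desaturase genes of the locus, Scd3 and Scd4, were listed at 0 to 2.99 and 0 to 1.17 CPM over all libraries. In these bulk samples, fewer cells of a type and less RNA per cell cannot be told apart.

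**Figure D1:**
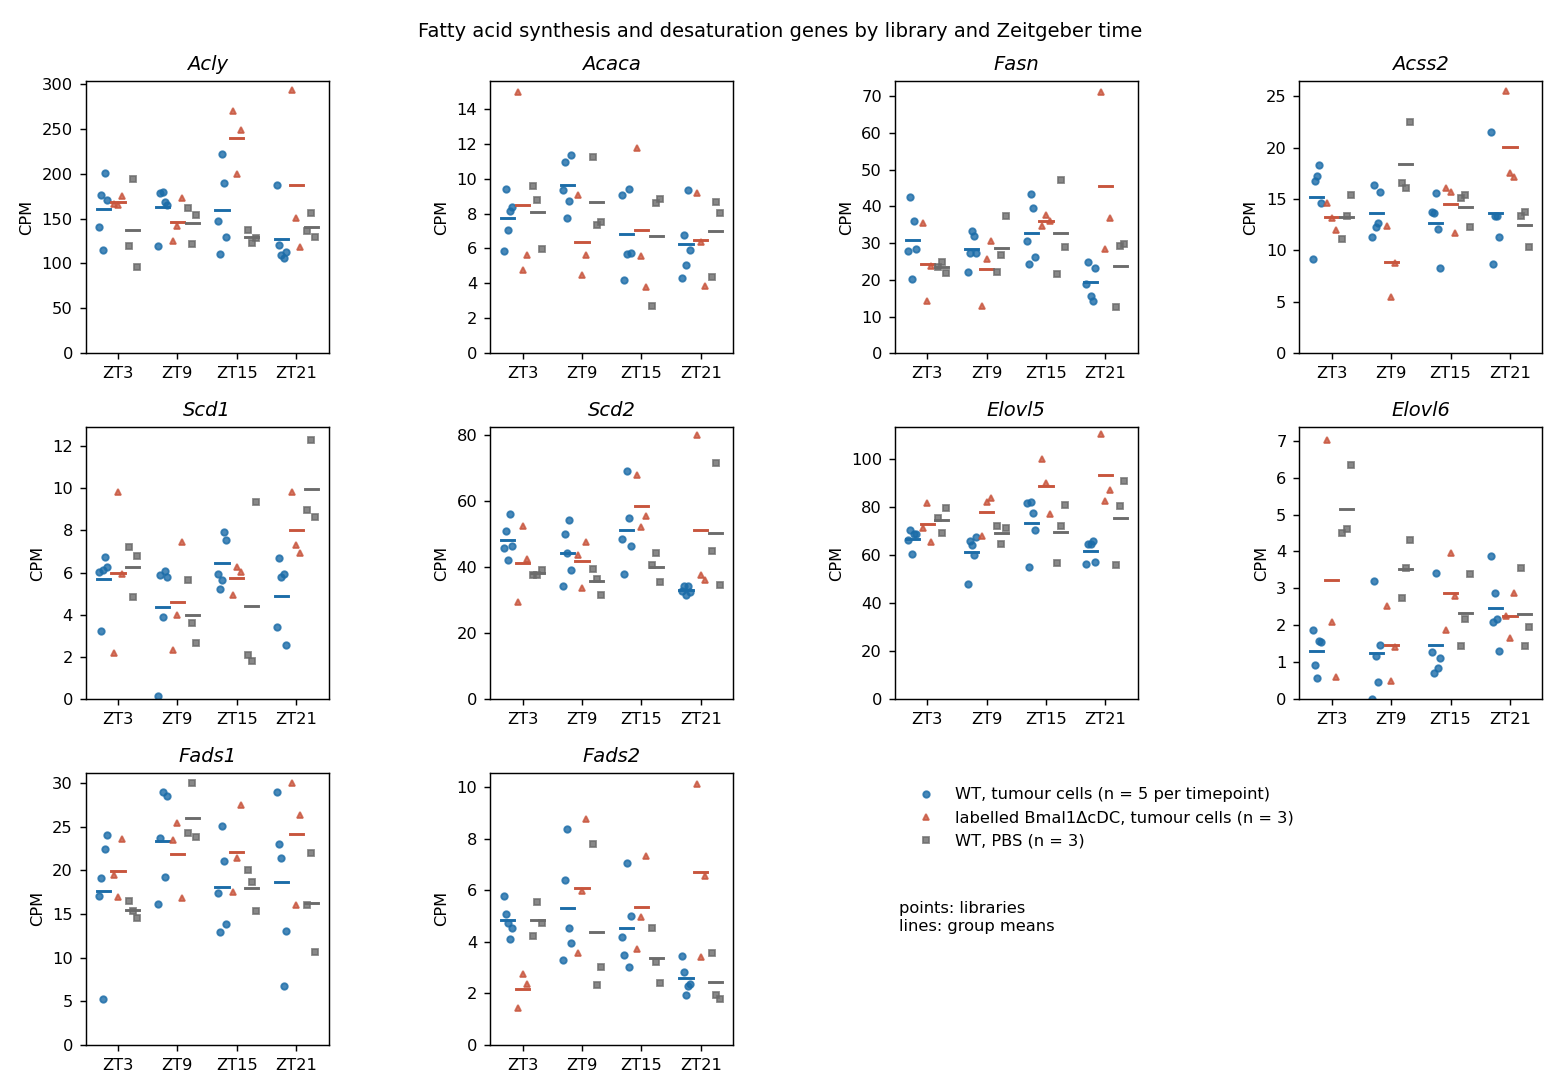
CPM of the 10 fatty acid genes at ZT3, ZT9, ZT15 and ZT21, each point 1 library and each line the group means, for WT with tumour cells (n = 5 per timepoint), libraries labelled Bmal1ΔcDC with tumour cells (n = 3) and WT with PBS (n = 3). Elovl5 was higher in libraries labelled Bmal1ΔcDC than in WT, and the mean of Elovl6 was highest in PBS at ZT3, although 1 ZT3 library labelled Bmal1ΔcDC (7.02 CPM) lay above every PBS library.

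The study asked whether DCs differ with the time of day, and compared ZT9 with ZT21 in particular. Between these times, 4 of the 10 genes (Fads2, Acaca, Scd2 and Fasn) were higher at ZT9 in WT and 1 (Elovl6) was lower, at an unadjusted p under 0.05 (limma on log2(CPM + 0.5)). Of all 11963 genes tested, 11.5% passed by this rule, 6.44% higher and 5.02% lower. The median difference of the 10 genes was 0.39 on the log2 scale, against 0.04 over all genes, and 7 of 10 were positive. Without replicate 1 of WT ZT9 the median was 0.48, against 0.06 over all genes, with 9 of 10 positive, 5 higher (Acly in addition) and none lower at this threshold. That library was the lowest of its group for 9 of these 10 genes, so its omission had to raise their ZT9 means. The ZT9 and ZT21 libraries of WT overlapped for each of the 10 genes, whereas 4.09% of all genes did not overlap. None of the 10 passed an adjusted p of 0.05 over all genes, a threshold that 0.226% of genes passed. In libraries labelled Bmal1ΔcDC, 2 of the 10 genes (Acss2 and Fasn) were lower at ZT9 and none was higher, beside 8.89% and 2.05% of all genes (10.9% in either direction). The median over the 10 genes was -0.25, against -0.12 over all genes, and 0 of 10 were positive. This rested on replicate 1 of ZT21, without which the median was -0.03, 5 of 10 were positive and Acss2 alone was lower at this threshold. In PBS, 2 genes (Fads1 and Acss2) were higher and 1 (Scd1) was lower at ZT9, beside 3.61% and 1.71% of all genes (5.32% in either direction). The differences of Scd1, Scd2 and Elovl5 were negative in PBS and those of the other fatty acid genes positive. Over all genes the PBS median was 0.03.

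**Figure D2:**
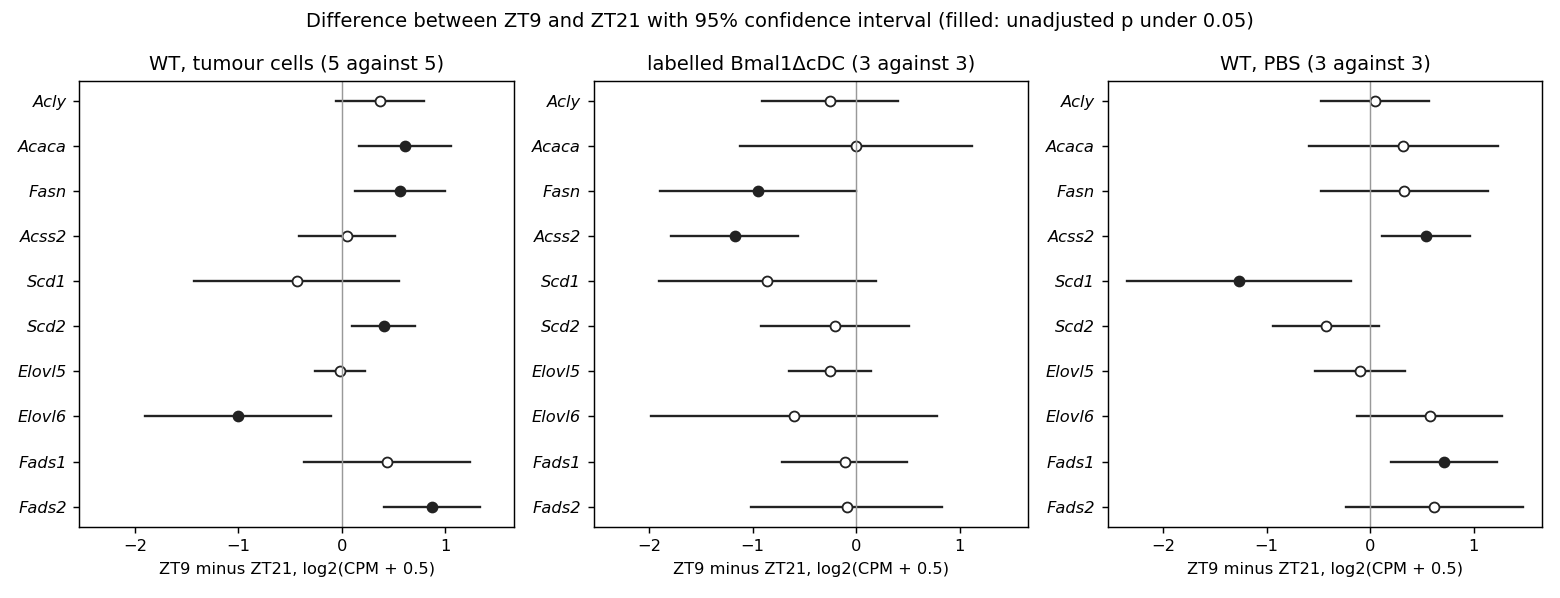
Difference between ZT9 and ZT21 in log2(CPM + 0.5) for each fatty acid gene with its 95% confidence interval, in WT (5 against 5 libraries), libraries labelled Bmal1ΔcDC (3 against 3) and PBS (3 against 3). In WT the intervals of Fads2, Acaca, Scd2 and Fasn lie above 0 and that of Elovl6 below it, whereas in libraries labelled Bmal1ΔcDC those of Acss2 and Fasn lie below 0.

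Acly, which links the citrate of the mitochondria to cytosolic acetyl-CoA, did not pass the test between ZT9 and ZT21 in any group. In WT it was at 119.9, 166, 169, 179 and 179 CPM at ZT9 and at 106, 109, 113, 121 and 188 CPM at ZT21, a difference of 0.37 (95% confidence interval -0.06 to 0.80, adjusted p = 0.497, limma). These WT groups overlapped through the lowest ZT9 library and the highest ZT21 library. Without replicate 1 of WT ZT9 the difference was 0.47, with an unadjusted p of 0.0353 and an adjusted p of 0.340. Acly in libraries labelled Bmal1ΔcDC was at 125, 142 and 173 CPM at ZT9 and at 118, 150.4 and 293 CPM at ZT21, where 1 library was far above the others (difference -0.25, interval -0.91 to 0.40, and 0.12 without that library). In PBS it was at 121 to 161 CPM and 129 to 156 CPM (difference 0.04, interval -0.48 to 0.57).

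Acss2, which makes acetyl-CoA from acetate, differed in opposite directions in the libraries labelled Bmal1ΔcDC and in PBS. In libraries labelled Bmal1ΔcDC it was at 5.502, 8.76 and 12.4 CPM at ZT9 and at 17.1, 17.5 and 25.5 CPM at ZT21. Every ZT9 library was below every ZT21 library, a separation in this direction that 11.8% of genes showed. The difference was -1.17 (SE 0.28, interval -1.79 to -0.56, unadjusted p = 0.00158, adjusted p = 0.217), and it passed an unadjusted p of 0.05 in all 12 omissions of 1 library. Without replicate 1 of ZT21 it was -0.99 (unadjusted p = 0.00748). In PBS Acss2 was at 16.1, 16.6 and 22.5 CPM at ZT9 and at 10.3, 13.3 and 13.8 CPM at ZT21, and every ZT9 library was above every ZT21 library, as for 6.65% of genes. The difference was 0.54 (interval 0.11 to 0.97, unadjusted p = 0.0183, adjusted p = 0.903), and its unadjusted p was 0.0815 without replicate 3 of ZT9 and 0.0781 without replicate 3 of ZT21. In WT it did not pass, at 11.3 to 16.3 CPM at ZT9 and 8.73 to 21.5 CPM at ZT21 (difference 0.05, interval -0.42 to 0.51). The difference between ZT9 and ZT21 was 1.22 lower in libraries labelled Bmal1ΔcDC than in WT when tested as an interaction (interval -1.96 to -0.48, unadjusted p = 0.00227, adjusted p = 0.188), and 1.04 lower without replicate 1 of ZT21 (unadjusted p = 0.0117).

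Acaca, the rate-limiting carboxylase that makes malonyl-CoA, was at 7.77, 8.74, 9.32, 10.96 and 11.4 CPM at ZT9 and at 4.33, 5.03, 5.93, 6.80 and 9.33 CPM at ZT21 in WT. The groups overlapped through 1 ZT21 library. The difference was 0.61 (SE 0.21, interval 0.17 to 1.05, unadjusted p = 0.00970, adjusted p = 0.282). Acaca in libraries labelled Bmal1ΔcDC spread from 4.46 to 9.08 CPM at ZT9 and from 3.86 to 9.16 CPM at ZT21, with a difference of -0.00 (interval -1.12 to 1.12). In PBS it spread from 7.32 to 11.2 CPM and from 4.38 to 8.64 CPM (difference 0.32, interval -0.60 to 1.23). The intervals of these 2 groups include the WT value, and the interaction with genotype did not pass (unadjusted p = 0.217).

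Fasn, which assembles palmitate from malonyl-CoA, fell at ZT21 in WT. Its levels there were 14.2, 15.5, 18.8, 23.2 and 24.98 CPM, against 22.1, 27.2, 27.4, 31.9 and 33.3 CPM at ZT9, and the means at ZT3 and ZT15 were 30.9 ± 8.50 and 32.7 ± 8.34 CPM (SD, n = 5). ZT21 held the 3 lowest of the 20 WT libraries. The difference between ZT9 and ZT21 was 0.56 (SE 0.21, interval 0.12 to 1.00, unadjusted p = 0.0150, adjusted p = 0.327). Fasn in libraries labelled Bmal1ΔcDC was at 12.8, 25.6 and 30.6 CPM at ZT9 and at 28.5, 36.9 and 71.2 CPM at ZT21, so that the direction was opposite to that in WT. That difference of -0.95 (interval -1.89 to -0.00, unadjusted p = 0.0490, adjusted p = 0.455) was lost in 8 of 12 omissions, with an unadjusted p of 0.201 without replicate 1 of ZT9 and 0.200 without replicate 1 of ZT21. It was also lost under median-of-ratios scaling (-0.82, unadjusted p = 0.0777 in limma), which moved the median over all genes from -0.12 to -0.00. The interaction was -1.51 (interval -2.40 to -0.62, unadjusted p = 0.00168, adjusted p = 0.180), and -1.14 without replicate 1 of ZT21 (unadjusted p = 0.0135). In PBS Fasn was at 22.2 to 37.5 CPM at ZT9 and 12.6 to 29.9 CPM at ZT21, and did not pass (difference 0.33, interval -0.48 to 1.14).

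Scd2, a stearoyl-CoA desaturase expressed in many tissues, was at 31.4, 32.5, 32.8, 34.1 and 34.2 CPM at ZT21 in WT, the narrowest of its WT groups. At ZT9 it was at 34.2, 39.1, 44.3, 50.1 and 54.2 CPM, and the groups overlapped only in that the lowest ZT9 library lay between the 2 highest ZT21 libraries. The difference was 0.40 (SE 0.14, interval 0.10 to 0.71, unadjusted p = 0.0118, adjusted p = 0.308). In PBS Scd2 was at 31.5, 36.3 and 39.3 CPM at ZT9 and at 34.7, 44.8 and 71.5 CPM at ZT21, with a difference of -0.43 that did not pass (interval -0.94 to 0.08). The WT difference was 0.83 above that of PBS (interval 0.31 to 1.36, unadjusted p = 0.00304, adjusted p = 0.508), and 0.55 above it without replicate 2 of PBS ZT21, the highest library (unadjusted p = 0.0271). Scd2 in libraries labelled Bmal1ΔcDC was at 33.8, 43.8 and 47.7 CPM at ZT9 and at 36.1, 37.6 and 80.0 CPM at ZT21 (difference -0.20, interval -0.92 to 0.51), where the highest value was that of the library that stood apart, and without it the difference was 0.16.

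Scd1, the desaturase that predominates in liver and fat, was at 2.65, 3.61 and 5.64 CPM at ZT9 and at 8.61, 8.97 and 12.3 CPM at ZT21 in PBS. Every ZT9 library was below every ZT21 library, as for 3.74% of genes. The difference was -1.27 (SE 0.49, interval -2.35 to -0.19, unadjusted p = 0.0258, adjusted p = 0.920), with an unadjusted p of 0.0884 without replicate 3 of ZT9, 0.0784 without replicate 2 of ZT21 and 0.0580 without replicate 2 of ZT9. In WT Scd1 was at 0.157, 3.91, 5.81, 5.90 and 6.09 CPM at ZT9, and the lowest value was that of replicate 1. At ZT21 it was at 2.57, 3.41, 5.78, 5.93 and 6.68 CPM in WT, overlapping ZT9 almost completely (difference -0.43, interval -1.43 to 0.56, and 0.20 without replicate 1 of ZT9). Libraries labelled Bmal1ΔcDC had 2.32, 3.97 and 7.46 CPM of Scd1 at ZT9 and 6.91, 7.29 and 9.81 CPM at ZT21 (difference -0.86, interval -1.90 to 0.19).

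Elovl5, which elongates polyunsaturated fatty acids, did not pass between ZT9 and ZT21 in WT, at 48.1, 60.3, 64.4, 65.8 and 67.8 CPM and at 56.5, 57.4, 64.5, 64.6 and 65.8 CPM. Its difference of -0.02 had the narrowest interval of the 10 genes (-0.26 to 0.23). In PBS Elovl5 was at 64.7 to 72.0 CPM at ZT9 and 55.8 to 91.0 CPM at ZT21 (difference -0.10, interval -0.54 to 0.34), and in libraries labelled Bmal1ΔcDC its difference was -0.25 (interval -0.65 to 0.14). Elovl6, which elongates palmitate to stearate, was at 0, 0.451, 1.17, 1.46 and 3.20 CPM at ZT9 and at 1.299, 2.09, 2.17, 2.89 and 3.89 CPM at ZT21 in WT. The difference of -1.002 (SE 0.43, interval -1.90 to -0.10, unadjusted p = 0.0308, adjusted p = 0.387) was lost without replicate 1 of WT ZT9 (-0.63, unadjusted p = 0.119), whose Elovl6 was listed at 0, and in 4 of 20 omissions in all. In PBS Elovl6 was at 2.75, 3.54 and 4.31 CPM at ZT9 and at 1.43, 1.96 and 3.54 CPM at ZT21 (difference 0.57, interval -0.13 to 1.27). The WT difference was 1.58 below that of PBS (interval -2.87 to -0.28, unadjusted p = 0.0191, adjusted p = 0.664), and -1.20 (unadjusted p = 0.0407) without replicate 1 of WT ZT9, with an unadjusted p of 0.0599 without replicate 2 of PBS ZT21.

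Fads2, the desaturase that catalyses the first step towards long-chain polyunsaturated fatty acids, had the smallest p-value of the 10 genes between ZT9 and ZT21 in WT. It was at 3.30, 3.97, 4.53, 6.41 and 8.36 CPM at ZT9 and at 1.94, 2.29, 2.37, 2.84 and 3.45 CPM at ZT21, and the groups overlapped in 1 library of each. The difference was 0.87 (SE 0.22, interval 0.41 to 1.33, unadjusted p = 0.000934, adjusted p = 0.122), and 1.01 without replicate 1 of WT ZT9 (adjusted p = 0.0710). The lowest levels fell elsewhere in libraries labelled Bmal1ΔcDC, at 1.45, 2.37 and 2.75 CPM at ZT3 against 3.56, 5.96 and 8.78 CPM at ZT9 and 3.40, 6.57 and 10.1 CPM at ZT21. Between ZT9 and ZT21 these libraries overlapped (difference -0.09, interval -1.01 to 0.83). In PBS Fads2 was at 2.33, 3.04 and 7.78 CPM at ZT9 and at 1.80, 1.95 and 3.57 CPM at ZT21 (difference 0.62, interval -0.23 to 1.47). Fads1, which acts later in the same pathway, was at 23.9, 24.3 and 29.95 CPM at ZT9 and at 10.7, 16.1 and 22.0 CPM at ZT21 in PBS. Every ZT9 library was above every ZT21 library, as for 6.65% of genes, with a difference of 0.71 (SE 0.23, interval 0.20 to 1.23, unadjusted p = 0.0115, adjusted p = 0.839). In WT Fads1 spread from 16.2 to 29.0 CPM at ZT9 and from 6.75 to 29.0 CPM at ZT21 (difference 0.44, interval -0.36 to 1.24), and in libraries labelled Bmal1ΔcDC from 16.8 to 25.4 CPM and from 16.04 to 29.9 CPM.

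A cosinor with a 24-h period gave 2 of 10 genes an unadjusted p under 0.05 in WT, beside 9.20% of all genes. These were Fads2, with an amplitude of 0.44 on the log2 scale and a peak at ZT 8.46 (unadjusted p = 0.00571, adjusted p = 0.337), and Acaca, with an amplitude of 0.32 and a peak at ZT 7.68 (unadjusted p = 0.0204, adjusted p = 0.432). For Acaca the unadjusted p was 0.0549 without replicate 1 of WT ZT21 and 0.0511 without replicate 5 of WT ZT9. Without replicate 1 of WT ZT9, an omission chosen after the data were seen, Fasn and Scd2 passed as well (unadjusted p = 0.0375 and 0.0255). The fitted peaks of Fads2, Acaca, Acly (8.70), Fasn (9.60), Scd2 (9.63) and Fads1 (10.3) lay within 3 h of each other, and those of Acss2 (3.73), Elovl5 (15.6), Scd1 (19.4) and Elovl6 (20.8) lay elsewhere. All but those of Fads2 and Acaca come from fits that did not pass. In libraries labelled Bmal1ΔcDC, 2 of 10 genes passed, beside 10.5% of all genes. Acss2 had an amplitude of 0.59 and a peak at ZT 20.6 (unadjusted p = 0.00342, adjusted p = 0.341), and Fasn an amplitude of 0.57 and a peak at ZT 18.7 (unadjusted p = 0.0498), a call lost in 9 of 12 omissions. In PBS 4 of 10 genes passed, beside 7.38% of all genes, with adjusted p-values of 0.663 or more. Elovl6 peaked at ZT 4.93 (amplitude 0.59, unadjusted p = 0.0115), Acss2 at ZT 9.73 (0.27, unadjusted p = 0.0463), Fads1 at ZT 10.1 (0.37, unadjusted p = 0.0377) and Scd1 at ZT 23.1 (0.75, unadjusted p = 0.0345). The call of Elovl6 held in 12 of 12 omissions, whereas those of Acss2, Fads1 and Scd1 were each lost in 7 of 12. Their unadjusted p-values rose to 0.165 (Acss2, without replicate 3 of ZT9), 0.128 (Fads1, without replicate 3 of ZT21) and 0.0889 (Scd1, without replicate 2 of ZT21) in limma.

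Courses over 4 timepoints need not be cosines, and a test of any difference among the timepoints gave 4 of 10 genes an unadjusted p under 0.05 in WT, beside 23.1% of all genes. Scd2 also passed after adjustment (adjusted p = 0.0480), as did 5.28% of all genes. This adjusted call held in only 3 of 20 omissions, with an adjusted p of up to 0.101 (without replicate 3 of ZT21), and was lost with a pseudocount of 0.1 and with all genes tested, whereas the unadjusted p stayed under 0.05 in 20 of 20. Its WT means were 48.2 ± 5.38 CPM at ZT3, 44.4 ± 8.11 at ZT9, 51.3 ± 11.6 at ZT15 and 33.0 ± 1.17 at ZT21 (SD, n = 5), so that ZT21 was the low timepoint. Fads2 (adjusted p = 0.0542), Fasn (adjusted p = 0.0908) and Acaca (adjusted p = 0.202) were the others, and Acaca was lost in 11 of 20 omissions. Fads2 was also lowest at ZT21, at 2.58 ± 0.583 CPM against 4.84 ± 0.632 CPM at ZT3. In libraries labelled Bmal1ΔcDC, 2 genes passed (Acss2, unadjusted p = 0.0116, and Fads2, unadjusted p = 0.0297), beside 10.3% of all genes, and Fads2 was lost without replicate 1 of ZT3 (unadjusted p = 0.145). In PBS 2 genes passed (Elovl6, unadjusted p = 0.0202, and Fads1, unadjusted p = 0.0336), beside 7.44% of all genes. Fads1 was lost in 6 of 12 omissions, with an unadjusted p of 0.143 without replicate 2 of ZT9. Elovl6 was lost without replicate 3 of ZT3 (unadjusted p = 0.0735) and with an intensity trend (unadjusted p = 0.0662).

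Averaged over the timepoints, 2 of the 10 genes were higher in libraries labelled Bmal1ΔcDC than in WT at an unadjusted p under 0.05 and none was lower, beside 29.9% and 13.1% of all genes (43.0% in either direction). The median over the 10 genes was 0.17, against 0.10 over all genes. Elovl5 had the smallest p-value of the 10. It was at 65.9 ± 8.55 CPM in WT (n = 20) and 83.4 ± 12.9 CPM in libraries labelled Bmal1ΔcDC (SD, n = 12), and in the latter it was at 68.0, 82.1 and 84.1 CPM at ZT9 and at 82.6, 87.3 and 110.5 CPM at ZT21. Every one of these ZT9 and ZT21 libraries was above every WT library of the same timepoint, a separation that 9.21% and 13.6% of genes showed. The averaged difference was 0.33 (SE 0.07, interval 0.19 to 0.47, adjusted p = 0.000467). Elovl5 was the only 1 of the 10 to pass an adjusted p of 0.05, as did 33.7% of all genes. It passed an unadjusted p of 0.05 in 32 of 32 omissions, and was 0.30 without replicate 1 of ZT21 (adjusted p = 0.00125) and 0.24 under median-of-ratios scaling (adjusted p = 0.00744). Acly was at 153 ± 35.6 CPM in WT and 186 ± 56.8 CPM in libraries labelled Bmal1ΔcDC, a difference of 0.26 (interval 0.01 to 0.52, unadjusted p = 0.0455, adjusted p = 0.108). This call was lost in 19 of 32 omissions, and without replicate 1 of ZT21 the difference was 0.17 (unadjusted p = 0.147). The intervals of the other 8 genes included 0, from -0.27 to 0.26 for Acss2 and from -0.10 to 1.01 for Elovl6.

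At ZT21, 4 of the 10 genes lay above every WT library in all 3 libraries labelled Bmal1ΔcDC, beside 13.6% of all genes. These were Fasn (28.5 to 71.2 against 14.2 to 24.98 CPM), Scd1 (6.91 to 9.81 against 2.57 to 6.68 CPM), Scd2 (36.1 to 80.0 against 31.4 to 34.2 CPM) and Elovl5. Under median-of-ratios scaling, chosen for these counts after the data were seen, Scd1 and Scd2 overlapped and 2 genes remained apart, Fasn and Elovl5. The 13.6% was counted without this scaling, and the share of all genes apart with it was not counted. At ZT15 none of the 10 was apart from WT in either direction, where 23.5% of all genes were. At ZT3 the only such gene was Fads2, which was lower (1.45 to 2.75 against 4.09 to 5.78 CPM), as were 4.16% of genes. A course over the timepoints that differed between the genotypes was found for 3 genes at an unadjusted p under 0.05, beside 18.3% of all genes. These were Fads2 (unadjusted p = 0.000554, adjusted p = 0.0761), Fasn (unadjusted p = 0.00455, adjusted p = 0.132) and Acss2 (unadjusted p = 0.0155, adjusted p = 0.192). Without replicate 1 of ZT21 the unadjusted p-values were 0.00257, 0.0398 and 0.0476, so that all 3 calls held. Acss2 was lost without replicate 2 of ZT9 (unadjusted p = 0.0684) and under median-of-ratios scaling (unadjusted p = 0.0519). For the difference between ZT9 and ZT21 alone, the same 3 genes were lower in libraries labelled Bmal1ΔcDC, beside 11.6% of all genes lower and 4.96% higher (16.6% in either direction). The median of this interaction over all genes was -0.17, and -0.005 under median-of-ratios scaling. For Fads2 that interaction was -0.96 (interval -1.86 to -0.06, unadjusted p = 0.0374, adjusted p = 0.277), and it was lost in 9 of 32 omissions, with an unadjusted p of 0.173 without replicate 1 of ZT21. It was also lost under median-of-ratios scaling (-0.79, unadjusted p = 0.0753, limma), an intensity trend (unadjusted p = 0.0523) and array weights (-0.59, unadjusted p = 0.140).

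**Figure D3:**
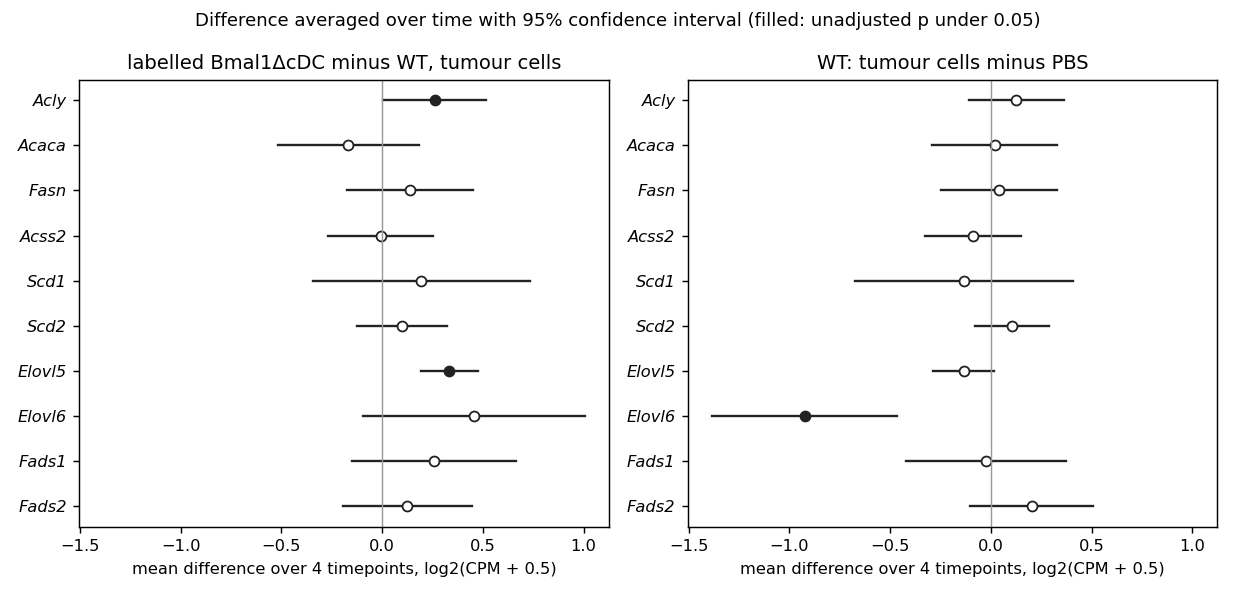
Differences averaged over 4 timepoints in log2(CPM + 0.5), with 95% confidence intervals, between libraries labelled Bmal1ΔcDC and WT (12 against 20 libraries) and between WT with tumour cells and WT with PBS (20 against 12). The interval of Elovl5 lies above 0 in the first comparison (0.19 to 0.47) and that of Elovl6 below 0 in the second (-1.38 to -0.47).

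Between WT mice with tumour cells and with PBS, 1 of the 10 genes differed when averaged over the timepoints, beside 45.8% of all genes (17.0% higher and 28.8% lower with tumour cells). Elovl6 was at 1.63 ± 1.04 CPM with tumour cells (n = 20) and 3.33 ± 1.47 CPM with PBS (SD, n = 12). In PBS it was at 4.51, 4.597 and 6.33 CPM at ZT3, above all 5 WT libraries with tumour cells at that time (0.578 to 1.86 CPM); at this timepoint 16.6% of genes did not overlap. The difference was -0.92 (SE 0.22, interval -1.38 to -0.47, adjusted p = 0.00165; 37.9% of all genes passed an adjusted p of 0.05), which passed an unadjusted p of 0.05 in 32 of 32 omissions. It was -0.83 without replicate 1 of WT ZT9 (adjusted p = 0.00133). A stricter filter on the mean level removed Elovl6 from the genes tested. The next smallest p-value was that of Elovl5, at 72.5 ± 10.1 CPM in PBS, with a difference of -0.13 (interval -0.29 to 0.02, adjusted p = 0.155). The intervals of the others all included 0, and were narrowest for Scd2 (-0.08 to 0.29) and widest for Scd1 (-0.67 to 0.41). Scd2 was above every PBS library in all 5 WT libraries at ZT3 (42.1 to 56.0 against 37.6 to 39.1 CPM), and below every PBS library at ZT21 (31.4 to 34.2 against 34.7 to 71.5 CPM), where 17.8% of genes did not overlap. Scd1 was also below PBS in every library at ZT21 (2.57 to 6.68 against 8.61 to 12.3 CPM). The course over the timepoints differed between these groups for 2 genes, beside 11.9% of all genes, namely Scd2 (unadjusted p = 0.00410, adjusted p = 0.199) and Elovl6 (unadjusted p = 0.0325, adjusted p = 0.374). Both were lost without replicate 2 of PBS ZT21 (unadjusted p = 0.0606 and 0.0952). For the difference between ZT9 and ZT21 alone, the same genes passed, Scd2 higher and Elovl6 lower, beside 2.79% and 3.83% of all genes (6.62% in either direction).

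Ratios within a library depend little on its scaling where both genes are well above the 0.5 added, and more for a low gene such as Elovl6. Scd1 was below Scd2 in 44 of 44 libraries, with log2 ratios of CPM + 0.5 of -5.72 to -1.87. Elovl6 was below Elovl5 in 44 of 44 libraries (-6.60 to -3.26), and Fads1 was above Fads2 in 44 of 44 (0.14 to 3.43). The order within each pair was thus the same in every mouse. Of 6 comparisons of these ratios between groups, 1 passed after adjustment, that of Elovl6 to Elovl5, which averaged -5.13 in WT with tumour cells and -4.34 in PBS. That difference of -0.79 had a p of 0.00351 and an adjusted p of 0.0211 (two-sided permutation test within timepoints, 100000 resamples). It was -0.72 without replicate 1 of WT ZT9, whose Elovl6 was listed at 0 (permutation p = 0.00526). With values centred on the mean of each replicate number it was -0.55 (adjusted permutation p = 0.199). Some replicate numbers exist only in WT, so this centring takes out part of the group difference and cannot decide whether the call holds. The other 5 had adjusted p-values of 0.720. Over time, none of 9 tests passed after adjustment, and the smallest adjusted p was 0.313 (permutation tests of the timepoint labels).

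**Figure D4:**
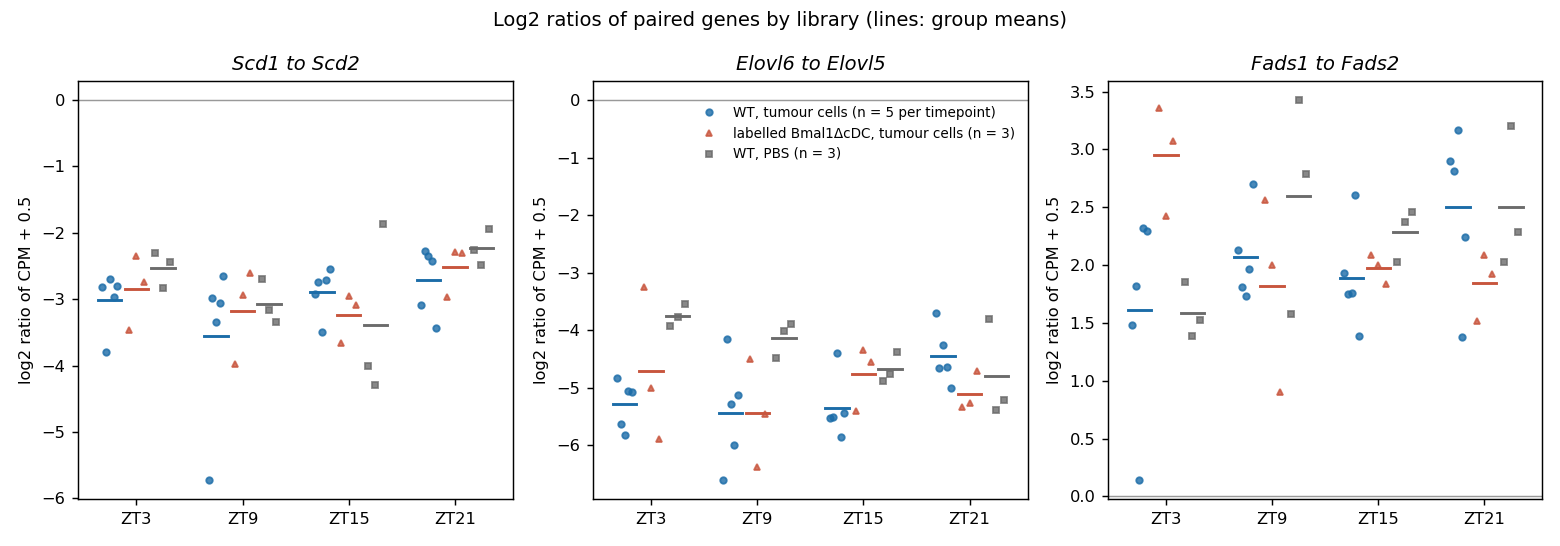
Log2 ratios of CPM + 0.5 of Scd1 to Scd2, Elovl6 to Elovl5 and Fads1 to Fads2 at the 4 timepoints, each point 1 library and each line the group means. The first 2 ratios lie below 0 and the last above 0 in 44 of 44 libraries, and Elovl6 to Elovl5 averages -4.34 in PBS and -5.13 in WT with tumour cells.

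After timepoint means were removed, the log2 values of the 10 genes correlated with each other with a mean Pearson's r of 0.348 over 45 pairs in WT, of 0.191 in libraries labelled Bmal1ΔcDC and of 0.0172 in PBS. Over pairs of all genes these means were 0.0584, 0.00829 and 0.0102. Without replicate 1 of WT ZT9, an omission chosen after the data were seen, the WT mean was 0.235, and without replicate 1 of ZT21 that of libraries labelled Bmal1ΔcDC was -0.0329, so that the latter rested on 1 library. In WT the 3 closest pairs all held Acly, with Scd2 (r = 0.745), Fads1 (r = 0.743) and Fasn (r = 0.712). In libraries labelled Bmal1ΔcDC the closest pair was again Acly and Scd2 (r = 0.775, and 0.335 without that library), and in PBS it was Scd2 and Fads1 (r = 0.868). These are descriptions over 20, 12 and 12 libraries, and all genes of a library share its depth and scaling. The next r values were taken with timepoint means kept, so they include shared change over time. The genes outside the 10 whose values followed their mean most closely over the 20 WT libraries were Adam10 (r = 0.893), which encodes a sheddase of the cell surface, Wdr7 (r = 0.879), Coa5 (r = 0.874), Bzw1 (r = 0.868) and Ptbp3 (r = 0.866). These 5 genes were chosen on WT, so no comparison with the other groups is drawn from their r.

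The regulators of these enzymes were examined in the same comparisons. Srebf2 was at 342 to 366 CPM at ZT9 and 227 to 289 CPM at ZT21 in WT, without overlap, a difference of 0.47 (unadjusted p = 0.000510, adjusted p = 0.0848). Its differences in libraries labelled Bmal1ΔcDC and PBS were 0.27 (interval -0.18 to 0.71) and 0.36 (interval -0.18 to 0.91). Insig1, a target as well as an inhibitor of SREBPs, was higher at ZT9 in WT, by 1.26 (adjusted p = 1.98e-05), with differences of 0.73 in libraries labelled Bmal1ΔcDC (adjusted p = 0.384) and 0.66 in PBS (adjusted p = 0.920). Srebf1, which encodes the form linked most to fatty acid synthesis, did not pass in any group, at 40.5 to 53.5 CPM at ZT9 and 27.3 to 47.3 CPM at ZT21 in WT. Its difference between ZT9 and ZT21 was 0.68 lower in libraries labelled Bmal1ΔcDC than in WT (interval -1.17 to -0.20, unadjusted p = 0.00745, adjusted p = 0.202). Fasn, Acss2 and Fads2 had this direction, as did the median over all genes (-0.17, and -0.005 under median-of-ratios scaling). A link between Srebf1 and these genes was not tested. Nr1h3 did not pass between ZT9 and ZT21 in WT (-0.07, interval -0.39 to 0.24) but was lower with tumour cells than with PBS (-1.03, adjusted p = 9.81e-09). Srebf2 was higher with tumour cells than with PBS (0.67, adjusted p = 2.55e-07) and lower in libraries labelled Bmal1ΔcDC than in WT (-0.37, adjusted p = 0.000221), whereas Srebf1 did not pass in either comparison.

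Of the other genes of the pathway, 3 of 9 for citrate and NADPH supply differed between ZT9 and ZT21 in WT at an unadjusted p under 0.05 (2 higher, 1 lower), a test that 11.5% of all genes passed. These were the citrate carrier Slc25a1 (0.31) and the pentose phosphate genes Tkt (0.26) and Taldo1 (-0.23). Of 7 other genes of fatty acid synthesis, 2 were higher at ZT9, namely Acsf3, a mitochondrial malonyl-CoA synthetase (0.97, adjusted p = 0.0184), and Aacs, which makes acetoacetyl-CoA (0.82, adjusted p = 0.0878). Of 11 other elongation and desaturation genes, 2 were higher (Elovl7, 0.49, and Tecr, 0.21). Of 13 genes of acyl-CoA and glycerolipid synthesis, 3 were higher (Gpam, 1.14, Lpin1, 0.57, and Lpcat3, 0.32), and of 13 of fatty acid oxidation 2 were higher (Ppargc1a, 1.32, and Cpt1a, 0.75). Of these 5 lists, 0 of 9, 0 of 7, 2 of 11, 0 of 13 and 1 of 13 genes passed in libraries labelled Bmal1ΔcDC, beside 10.9% of all genes, and in PBS 0 of 9, 2 of 7, 0 of 11, 1 of 13 and 1 of 13, beside 5.32%. Averaged over the timepoints, 7 of 11 other elongation and desaturation genes were higher in libraries labelled Bmal1ΔcDC than in WT, as was Elovl5, beside 29.9% of all genes, with the 3-hydroxyacyl-CoA dehydratases Hacd4 (1.76, adjusted p = 1.23e-07) and Hacd3 (0.88, adjusted p = 0.000383) among them. With tumour cells against PBS, 8 of these 11 were lower, as was Elovl6, and 1 was higher, beside 28.8% and 17.0% of all genes, with Hacd3 at -0.98 (adjusted p = 1.68e-05). Scd1, Scd2, Fads1 and Fads2 passed neither of these averaged tests. Averaged counts of the other lists are not given here.

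Markers of some other cell types moved with these comparisons. Summed macrophage markers (8 of 8 listed, mostly Lyz2, with Mertk at 0 in 3 WT libraries, 7 labelled Bmal1ΔcDC and 3 PBS) were at 383 to 1054 CPM in WT, 841 to 2924 CPM in libraries labelled Bmal1ΔcDC and 1672 to 3084 CPM in PBS, in the same order as Elovl6. Not every macrophage marker kept this order: Adgre1 had medians of 22.3, 30.8 and 28.5 CPM. Summed T cell markers (7 of 8 listed) were at 203 to 483, 343 to 775 and 434 to 936 CPM, and NK cell markers (4 of 4 listed) at 2.21 to 14.0, 8.77 to 57.6 and 30.4 to 292 CPM. B cell markers (5 of 6 listed) differed less, with medians of 44.2, 45.8 and 50.1 CPM. Sums of stromal, keratinocyte and melanoma markers had medians of up to 12.3 CPM. Melanoma markers reached 22.1 CPM in 1 ZT15 library labelled Bmal1ΔcDC. Of the DC markers, whose sum is carried mainly by Cd74, Ccr7 and Fscn1, those of type 1 conventional DCs also moved. Xcr1 had medians of 6.07 CPM in WT, 13.1 CPM in libraries labelled Bmal1ΔcDC and 25.6 CPM in PBS, and Clec9a of 1.80, 0.589 and 5.22 CPM. Clec9a was near the floor, at 0 in 1 library labelled Bmal1ΔcDC. Those mice carried Clec9a-cre, whose effect on Clec9a levels was not tested, so no cell number is read from Clec9a. Genes of the dissociation stress response were at 2090 to 4165, 3787 to 6905 and 4581 to 7706 CPM. Over time they were at medians of 3642 and 3932 CPM at ZT3 and ZT15 in WT against 2190 and 2362 CPM at ZT9 and ZT21, and in PBS at 5613 to 6526 CPM at ZT9 against 4581 to 4953 CPM at ZT21, without overlap. Between ZT9 and ZT21 in WT, T cell markers were at 203 to 325 CPM and 311 to 483 CPM, and macrophage markers at 383 to 561 CPM and 549 to 683 CPM. Macrophage markers in libraries labelled Bmal1ΔcDC were at 841 to 1119 CPM at ZT9 and 1235 to 1899 CPM at ZT21, and T cell markers at 343 to 357 CPM and 372 to 775 CPM. The part of these cells and of the stress response in the differences of Elovl5, Elovl6, Fasn and the other fatty acid genes was not tested. Markers of adipocytes, which express Scd1, Fasn and Acly at high levels, summed to 1.31 to 7.70 CPM over all libraries (4 of 7 listed), nearly all from Adipoq, with Plin4 at 0 in 18 of 20 WT libraries.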

How the data were processed

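The authors aligned single reads of 50 bases from SMART-Seq libraries, which are amplified by PCR and carry no molecular identifiers, with STAR (mm10), obtained gene counts from HTSeq (version 0.9.1) and scaled these by library size in edgeR. The deposited table holds the CPM of 14699 genes in 44 libraries, and each column adds up to 1000000, so values are relative to the reads on listed genes. Groups and timepoints were taken from the labels. From 85.1% to 86.9% of values were whole reads (tolerance 0.0005 read), so no count test or counting interval was used. Depth, inferred from the most frequent value above 0, was 20088012 to 55799163 reads, and no pair of libraries was identical.

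Linear models in limma (version 3.58.1, R 4.3.3) were fitted to the 11963 genes that reached 1 CPM in 5 or more libraries, on log2(CPM + 0.5), which understates changes of low genes, with Benjamini–Hochberg adjustment over all of them. Calls used the unadjusted p of 0.05 of the study's cosinor, and adjusted p-values are given. Cosinor, timepoint and ZT9 against ZT21 models used the libraries of 1 group, and averaged effects and interactions the 32 of 2 groups. WT libraries with tumour cells enter both comparisons. The models were tested on simulated data.

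All 10 genes are named, with Srebf1, Srebf2, Insig1 and Nr1h3, up to 3 genes with the smallest p of each list, and the 5 most alike over WT. Members and lists were chosen with earlier results of these data known. The list of uptake and storage genes is not reported here. Alternatives were pseudocounts of 1 and 0.1, median-of-ratios scaling, all genes, genes averaging 10 CPM or more, fits by ordinary least squares, an intensity trend, array weights, a block for the replicate number, and omission of each library.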

Additional observations from a re-analysis of the deposited data

Results flagged for a closer look

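Among the 40 groups of 5 WT libraries with 1 of the 10 genes, 4 held a library far from the others, of which chance gives about 1 in 20. Acly was at 188 CPM in replicate 1 of WT ZT21, above the other 4, with a gap to the next library of 0.826 of the range. Acly was at 120 CPM in replicate 1 of WT ZT9, below the other 4 (gap 0.768 of the range). Scd1 was at 3.22 CPM in replicate 2 of WT ZT3, below the others (0.797), and Elovl6 was at 3.42 CPM in replicate 3 of WT ZT15, above the others (0.792).

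A difference between groups in the effect of time was found in 10 of 40 tests at an unadjusted p under 0.05 (limma). Of all genes, 18.3% (genotype by time), 16.6% (genotype by ZT9 against ZT21), 11.9% (treatment by time) and 6.62% (treatment by ZT9 against ZT21) passed these tests. Between libraries labelled Bmal1ΔcDC and WT, the courses over time differed for Fads2 (unadjusted p = 0.000554, adjusted p = 0.0761), Fasn (unadjusted p = 0.00455, adjusted p = 0.132) and Acss2 (unadjusted p = 0.0155, adjusted p = 0.192). For the difference between ZT9 and ZT21 the values were unadjusted p = 0.00168 for Fasn (adjusted p = 0.180), unadjusted p = 0.00227 for Acss2 (adjusted p = 0.188) and unadjusted p = 0.0374 for Fads2 (adjusted p = 0.277). Between WT with tumour cells and with PBS, the courses differed for Scd2 (unadjusted p = 0.0041, adjusted p = 0.199) and Elovl6 (unadjusted p = 0.0325, adjusted p = 0.374), and the difference between ZT9 and ZT21 for Scd2 (unadjusted p = 0.00304, adjusted p = 0.508) and Elovl6 (unadjusted p = 0.0191, adjusted p = 0.664). None of these passed an adjusted p of 0.05.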

How the results depend on the processing

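Counts of the 10 genes at an unadjusted p under 0.05 moved by over 1.5 times as follows. With a mean of at least 10 CPM, which left 6 of the 10 genes, the WT counts fell from 2 to 0 (cosinor), 4 to 2 (timepoints) and 5 to 2 (ZT9 against ZT21), those of libraries labelled Bmal1ΔcDC from 2 to 1 (timepoints), those of PBS from 4 to 2 (cosinor) and 2 to 1 (timepoints), and those of treatment from 1 to 0 (averaged, also when adjusted), 2 to 1 (by time) and 2 to 1 (by ZT9 against ZT21). Array weights gave 5 (WT cosinor), 4 (PBS timepoints), 1 (cosinor of libraries labelled Bmal1ΔcDC, genotype averaged, treatment by time), and at an adjusted p 1 (WT cosinor), 4 (WT timepoints), 4 (WT ZT9 against ZT21), 1 (genotype by time) and 2 (genotype by ZT9 against ZT21), where the report has 0, 1, 0, 0 and 0. Calls over all genes rose too, to 22.4% at an unadjusted p for the WT cosinor and at an adjusted p to 1.23%, 20.6%, 3.95%, 8.95% and 6.70% for these 5 tests. Of 15 array-weight fits 2, timepoints and ZT9 against ZT21 labelled Bmal1ΔcDC, stopped before convergence. The 1 gene at an adjusted p over WT timepoints (Scd2) became 0 with a pseudocount of 0.1, all genes or the replicate block and 3 with median-of-ratios scaling. In libraries labelled Bmal1ΔcDC the counts fell from 2 to 1 with a pseudocount of 0.1, median-of-ratios scaling, all genes, ordinary least squares or the block for the cosinor and ZT9 against ZT21, and with ordinary least squares for timepoints. The PBS cosinor fell from 4 to 2 with ordinary least squares or the block, genotype averaged from 2 to 1 with median-of-ratios scaling, ordinary least squares or the block, and treatment by time from 2 to 1 with a pseudocount of 0.1. The causes were not tested.

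With 1 library omitted, the counts were 1 to 4 (WT cosinor), 3 to 5 (WT timepoints, adjusted 0 to 3), 4 to 5 (WT ZT9 against ZT21), 1 to 2, 1 to 3 and 1 to 3 (the same tests labelled Bmal1ΔcDC), 1 to 4, 0 to 3 and 1 to 4 (PBS), 1 to 3 (genotype averaged, adjusted 1 to 2), 2 to 5 (genotype by time, adjusted 0 to 1), 2 to 6 (genotype by ZT9 against ZT21), 1 to 2 (treatment averaged, adjusted 1 to 2), 0 to 3 (treatment by time) and 1 to 3 (treatment by ZT9 against ZT21). F of the ratios over time ranged over 0.538 to 1.87, 0.635 to 1.79 and 0.976 to 20.4 for Scd1 to Scd2 (WT, labelled Bmal1ΔcDC and PBS). For Elovl6 to Elovl5 it ranged over 1.49 to 4.83, 0.136 to 1.27 and 1.93 to 19.1 in the same order. For Fads1 to Fads2 it ranged over 1.04 to 3.21, 1.602 to 6.24 and 0.993 to 5.81. Of 150 tests of single genes 39 passed. Under omission 106 of their 816 values lost the call, and 41 of the 2424 values of the other tests gained one. Under other settings 36 of 334 lost and 17 of 956 gained it. None that passed changed sign. The mean correlation between the 10 genes, with an omission chosen after seeing the data, changed from 0.191 to -0.0329 in libraries labelled Bmal1ΔcDC without replicate 1 of ZT21 and from 0.348 to 0.235 in WT without replicate 1 of ZT9.

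Same-numbered libraries deviated with a mean correlation of -0.0146 in WT, -0.000915 in libraries labelled Bmal1ΔcDC and -0.0285 in PBS. No pairing of mice by number was thus seen, although such means cannot exclude it. With the replicate block, F was 9.37 (p = 0.00838) for Scd1 to Scd2 and 4.13 (p = 0.0435) for Fads1 to Fads2 over time in libraries labelled Bmal1ΔcDC (permutation). For ratios, values were centred on each replicate number and labels were permuted freely across numbers. With it Elovl6 between ZT9 and ZT21 in WT (unadjusted p = 0.0504, limma) and the PBS cosinors of Acss2 (0.0793) and Scd1 (0.0508) passed no longer, Scd2 over WT timepoints had an adjusted p of 0.0770, and Elovl6 to Elovl5 differed by -0.55 between WT and PBS (adjusted permutation p = 0.199). Some replicate numbers exist only in WT, so the centring took out part of this ratio difference between WT and PBS. It cannot decide whether that call holds. Depth limits Elovl6 most, at 0 to 99 reads in WT.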
